A study of Mus musculus with 8 samples.

Results

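Serum amyloid A, dual oxidase and inducible nitric oxide synthase genes belong to a set that intestinal epithelium switches on when bacteria adhere to it. The set examined here held 10 genes picked by name: Saa1, Saa2 and Saa3, Duox2 and Duoxa2, Nos2, Fut2, Nox1, and the cytokine genes Il17a and Il22. Of these, 9 had a probe set, 1 each, among the 19505 genes with a symbol on the array. No probe set was named Duox2 in the annotation used, so Duox2 is not analysed here, and its partner Duoxa2 stands alone.

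All mice were male KKAy, a strain with the yellow agouti allele that becomes obese and diabetic, labelled as 14 weeks old, and fat supplied 45% of the energy in the feed of every mouse. After 4 weeks on this feed, 4 mice received voglibose at 1 mg/kg daily by gavage for 8 weeks and 4 mice received the same volume of water. Voglibose is an inhibitor of the brush border alpha-glucosidases, and inhibiting them leaves more undigested carbohydrate in the gut lumen. About 4 cm of whole ileum wall was taken per mouse, with 1 Affymetrix array each. No lean or normoglycaemic mice were analysed, and the arrays carry no measure of the gut bacteria themselves.

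As background, adherent bacteria such as segmented filamentous bacteria lead epithelial cells of the terminal ileum to release serum amyloid A, which promotes IL-17 production by T cells. IL-22 from innate lymphoid cells and IL-17 act back on the epithelium through their receptors and induce serum amyloid A, antimicrobial lectins, oxidases and fucosyltransferase. Dual oxidase and NOX1 make hydrogen peroxide and superoxide, NOS2 makes nitric oxide, and FUT2 adds the terminal fucose that gut bacteria can use as food.

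The set did not shift in 1 direction between the groups. Of its 9 measured genes 4 had a higher and 5 a lower mean log2 signal in voglibose mice, with differences from -2.07 (Duoxa2) to 0.91 (Nos2) and a median of -0.11, against a median of -0.01 over all 22206 probe sets. The sign of the members' median rested on 1 mouse, since leaving out water mouse 2 turned it to 0.21, and leaving out voglibose mouse 3 brought it to -0.0083. None of the 9 passed the test over all probe sets, where 0% of probe sets were called (limma, Benjamini-Hochberg adjusted p under 0.05), and a fit without moderation of the variance also called 0. Unadjusted, 1671 probe sets had a p under 0.05 in the first and 1560 in the second. At an unadjusted p under 0.05, 1 member was lower, Saa3, and none was higher, against 4.44% of all probe sets lower, 3.08% higher and 7.52% in either direction. The same gene was the 1 of 9 whose groups did not overlap, against 4.35% of all probe sets, 2.53% with voglibose lower and 1.82% with voglibose higher. For the bright members, mice of 1 group lay up to 6.78 log2 units apart, as water mice 2 and 4 did for Duoxa2. Water mouse 2 had the highest signal of all 8 mice in 5 of the 9 genes, Saa1, Saa2, Duoxa2, Nos2 and Fut2, and the lowest in 0, while 15.2% of all probe sets were highest in that mouse.

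**Figure D1:**
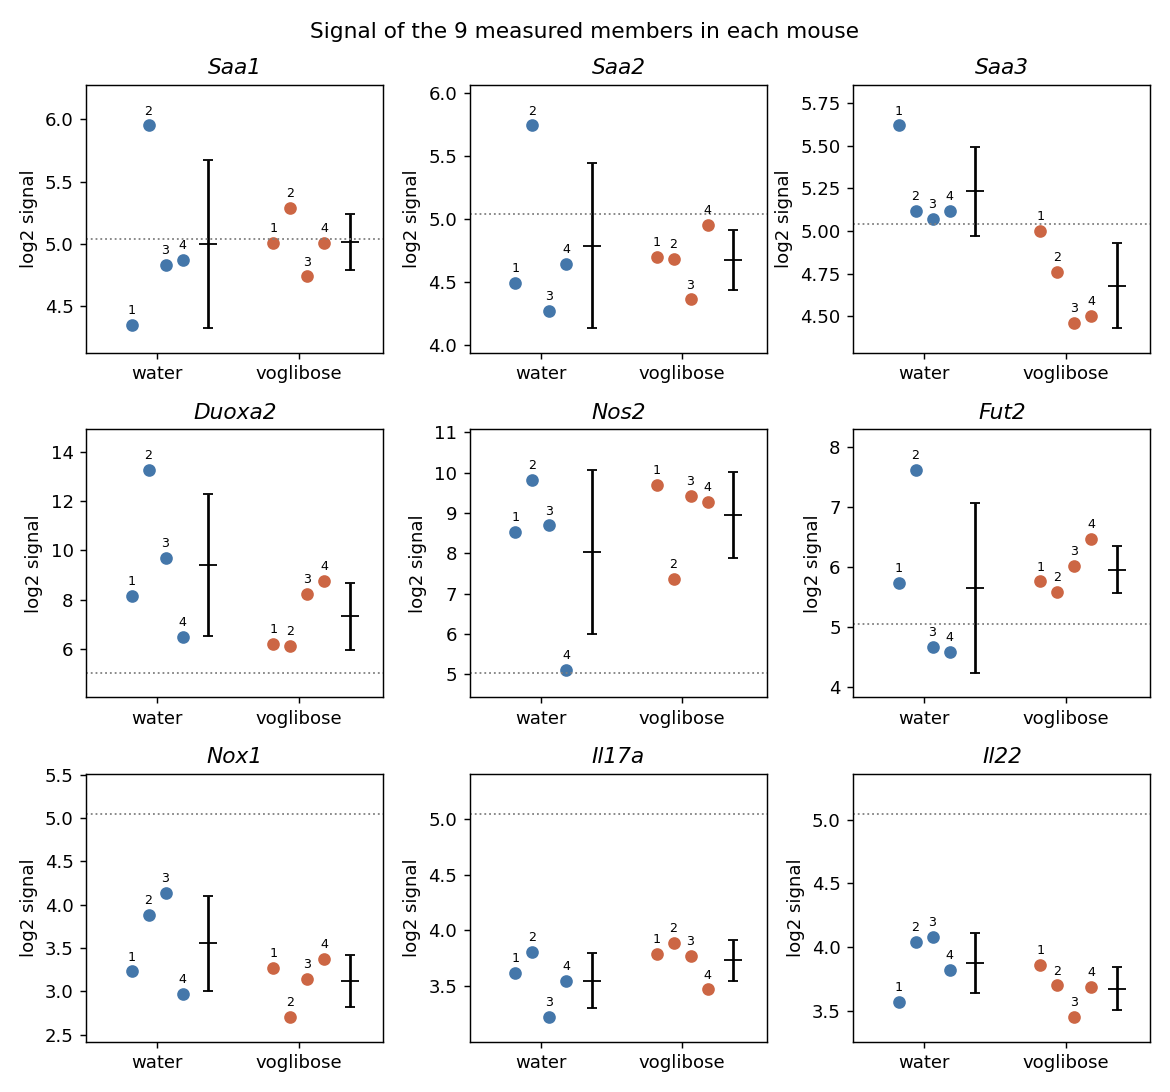
Log2 signal (vertical axis) of each measured member in the 4 water mice (blue) and 4 voglibose mice (orange), numbered by mouse, with the group mean and SD in black and a dotted line at 5.04, the 95th percentile of olfactory receptor probe sets. Water mouse 2 is the highest point in 5 panels, and the groups separate in the Saa3 panel, from 5.07 upwards in water and 5.0 downwards in voglibose mice.

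The tissue carried epithelium in every mouse. Epcam, an epithelial adhesion molecule, lay between 16.99 and 17.44 in all 8 mice, and 10 of 10 epithelial markers were above the dim range described below. Markers of the distal ileum, in contrast, differed widely between mice. Fabp6, the ileal bile acid binding protein that marks the distal ileum, had 8.51, 17.50, 14.11 and 4.01 in water mice 1 to 4 and 8.14, 3.54, 10.78 and 11.68 in voglibose mice 1 to 4. In water mouse 4 and voglibose mouse 2 it lay in the dim range, so this marker of the labelled tissue was not seen there. The 7 genes of the distal list, 2 higher and 5 lower under voglibose, summed to 16.19 to 18.54 in water and 15.77 to 16.78 in voglibose mice (log2 of the summed signal). Water mouse 2 was at the top, and water mouse 4 had 16.22. The mean of the log2 values, the measure used as a covariate below, ordered the mice differently. It was 10.81, 14.35, 12.45 and 9.22 in water mice 1 to 4 and 10.50, 9.20, 11.84 and 11.67 in voglibose mice 1 to 4. Of the 6 measured proximal markers, 6 had a higher mean in voglibose mice, 0 of them at an unadjusted p under 0.05. Their sum was lowest in water mouse 2, at 17.51. It was 19.12, 19.03 and 19.57 in water mice 1, 3 and 4, and 18.56 to 19.57 in voglibose mice.

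A yardstick for dim signal was taken from 1091 probe sets of olfactory receptor genes, which the ileum is not known to use. The 95th percentile of their mean log2 signals was 5.04 and their median 3.74. By their mean over the 8 mice, 3 members, Duoxa2, Nos2 and Fut2, were brighter than this yardstick, and 6 were at or below it: Saa1, Saa2, Saa3, Nox1, Il17a and Il22. A difference measured in that range may be compressed or may hold no transcript signal, since much of the signal can be background. Neither was tested.

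The ligands come first. Il17a encodes the cytokine IL-17A, made by T helper cells and other lymphocytes. It had 3.62, 3.81, 3.22 and 3.55 in water mice and 3.79, 3.89, 3.77 and 3.47 in voglibose mice. The groups overlapped, and all 8 mice lay within 0.67 of each other and well under the yardstick. The difference was 0.18 ± 0.16 (SE), with a 95% interval from -0.18 to 0.54 (limma adjusted p = 0.832), and leaving out water mouse 3, the lowest, brought it to 0.07.

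Il22, whose product acts on epithelial cells, had 3.57, 4.04, 4.08 and 3.82 in the water group, against 3.86, 3.70, 3.45 and 3.69 under voglibose. Water mice 2 and 3 were highest and voglibose mouse 3 lowest, within a range of 0.63. The difference was -0.20 ± 0.16, with an interval from -0.56 to 0.15 (adjusted p = 0.811), and leaving out single mice moved it between -0.30 and -0.13. Il17f and Il23a, the sister cytokine of IL-17A and the inducer of both, were in the same dim range, with water means of 3.02 and 3.28 and voglibose means of 3.13 and 3.42. For none of these 4 cytokines can the arrays tell a transcript at a low level from none. In a piece of whole tissue, fewer cells of a type and less RNA per cell cannot be told apart, here and in what follows. Of the T cell and innate lymphoid list, 6 of 9 markers were measured, and its sum ran from 9.72 to 10.94 in water and from 10.56 to 11.24 in voglibose mice, with 5 markers higher and 1 lower. The lowest sum was that of water mouse 2.

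The receptors of these cytokines were well above the dim range. Il22ra1, the epithelial subunit of the IL-22 receptor, averaged 11.45 ± 0.24 under water and 11.44 ± 0.42 under voglibose (SD, n = 4). Its difference was -0.01, and the 95% interval spanned -0.48 to 0.46. Il17ra, the shared IL-17 receptor subunit, averaged 6.92 ± 0.21 and 6.88 ± 0.25, and the interval of its difference spanned -0.42 to 0.33. With 4 mice a group, differences anywhere within those intervals, in either direction, remain compatible with the values. The intervals are for single genes, without adjustment over all probe sets, and are not limits of detection. Over the whole list of IL-17, IL-22 and IL-23 ligands, receptors and signalling, 15 of 17 genes were measured, 7 higher and 8 lower, with a median difference of -0.01. Of all probe sets 7.52% had an unadjusted p under 0.05, and of these 15 genes 1 did: Traf3ip2, which encodes the adaptor Act1 of IL-17 receptors. It had 8.84, 8.59, 8.75 and 8.83 in water and 9.15, 9.55, 8.91 and 9.06 under voglibose. The groups did not overlap, and the difference was 0.41 ± 0.16 (limma adjusted p = 0.658). The other genes of the list with the smallest p were Ahr, the aryl hydrocarbon receptor (-0.23 ± 0.19), Il17rc, the second IL-17 receptor subunit (0.24 ± 0.21), and Socs3, a feedback inhibitor of STAT3 (0.23 ± 0.23).

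Serum amyloid A proteins are small lipid-binding proteins of the acute phase response. Saa1 and Saa2 are made by liver and gut epithelium, and Saa3 by macrophages, adipocytes and gut epithelium. Their upstream sequences are shown because those of Saa1 and Saa2, whose signals varied together, are near copies of each other. RefSeq promoters (GRCm38.p6) were found for 8 of the 10 genes. The 250 bases before the annotated start are printed here 5′ to 3′, in lower case, with motif matches in capitals, for the Saa genes and for Duoxa2, the member with the widest range. Saa1 is at chr7:46742981-46743230 (minus strand), Saa2 at chr7:46751583-46751832 (plus strand), Saa3 at chr7:46715677-46715926 (minus strand) and Duoxa2 at chr2:122298650-122298899 (plus strand).
Saa1: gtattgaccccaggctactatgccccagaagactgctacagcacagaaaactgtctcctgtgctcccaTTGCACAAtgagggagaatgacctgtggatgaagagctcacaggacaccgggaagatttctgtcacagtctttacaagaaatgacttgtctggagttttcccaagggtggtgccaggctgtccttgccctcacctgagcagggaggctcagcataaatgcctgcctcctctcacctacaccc
Saa2: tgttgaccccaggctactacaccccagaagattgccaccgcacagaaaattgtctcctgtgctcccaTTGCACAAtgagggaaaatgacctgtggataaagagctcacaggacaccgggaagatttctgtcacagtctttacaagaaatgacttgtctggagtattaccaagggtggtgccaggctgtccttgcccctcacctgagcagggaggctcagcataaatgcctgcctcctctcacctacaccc
Saa3: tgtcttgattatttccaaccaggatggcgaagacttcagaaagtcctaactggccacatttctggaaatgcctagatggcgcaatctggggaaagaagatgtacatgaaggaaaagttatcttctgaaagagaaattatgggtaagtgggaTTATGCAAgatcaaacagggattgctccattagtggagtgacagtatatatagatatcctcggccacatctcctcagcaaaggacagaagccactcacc
Duoxa2: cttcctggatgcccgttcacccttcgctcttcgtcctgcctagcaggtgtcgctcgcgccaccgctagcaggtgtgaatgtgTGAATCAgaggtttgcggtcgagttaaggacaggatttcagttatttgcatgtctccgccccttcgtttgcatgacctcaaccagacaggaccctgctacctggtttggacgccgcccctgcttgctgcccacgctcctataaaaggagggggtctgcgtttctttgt

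In a global alignment 94.8% of the columns were identical between Saa1 and Saa2 upstream, against 52.2% between Saa1 and Saa3. On both strands, the C/EBP motif was searched as TTGCNNAA and the AP-1 motif as TGANTCA. The STAT motif was searched as TTCNNNGAA, next to an NF-kB consensus. Matches can overlap each other. The C/EBP letters stood at -182 to -175 in Saa1, at -183 to -176 in Saa2 and at -99 to -92 in Saa3, counted back from the base before the start as -1. They were found in 9.56% of all 32851 promoter windows of this length. Duoxa2 held the AP-1 letters at -168 to -162, which 6.75% of windows hold. The STAT and NF-kB letters, in 7.02% and 1.41% of windows, were not in these 4 windows. A match is a description of the letters, not evidence of binding.

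Saa1 had 4.35, 5.95, 4.83 and 4.87 in water mice 1 to 4 and 5.01, 5.29, 4.74 and 5.01 in voglibose mice 1 to 4. Water mouse 2 stood highest, water mouse 1 lowest, and the groups overlapped. The difference was 0.01 ± 0.29 (SE), with a 95% interval from -0.62 to 0.65 (limma adjusted p = 0.997), and leaving out 1 mouse moved it to 0.33 (water mouse 2) or -0.20 (water mouse 1). Hepatocyte markers, fixed because liver makes both Saa1 and Saa2, summed to 15.90 to 17.12 in water and 16.46 to 16.97 in voglibose mice. The sum was lowest in water mouse 2. Alb and Tat of the 6 were in the dim range, so the sum came from the other markers and is not by itself a measure of liver tissue. The part of liver in the Saa1 and Saa2 values was not tested.

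Saa2 had 4.49, 5.74, 4.27 and 4.64 in the water group, against 4.70, 4.68, 4.36 and 4.95 under voglibose, again with water mouse 2 on top and the other 7 mice under the yardstick. The difference was -0.11 ± 0.28, with an interval from -0.74 to 0.51 (adjusted p = 0.952), and 0.21 without water mouse 2. Over the 8 mice Saa1 and Saa2 varied together, with Pearson's r = 0.86 (exact permutation p = 0.0153, adjusted over 3 relations 0.0460) and Spearman's rho = 0.83 (exact permutation p = 0.0163, adjusted 0.0488). Without water mice 1 and 2, the farthest from the median of Saa1, r was 0.59, so the relation rests largely on those mice. Within groups r was 0.87. Whether probes of either gene also bind the other's transcript was not tested, as neither probe nor transcript sequences were used here, and the upstream likeness does not bear on it. As members of 1 family of close paralogs, both are given as uncertain. Saa4, the constitutive member of the family, had 3.65 ± 0.28 and 3.64 ± 0.18 in water and voglibose mice (SD, n = 4), in the dim range.

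Saa3 was the member with the smallest p. It had 5.62, 5.12, 5.07 and 5.12 in water mice and 5.0, 4.76, 4.46 and 4.50 in voglibose mice. All 4 voglibose mice lay below all 4 water mice, with 0.07 between the nearest of them, water mouse 3 and voglibose mouse 1. The difference was -0.55 ± 0.18 (SE), with a 95% interval from -0.95 to -0.16 (limma unadjusted p = 0.0104, adjusted p = 0.652). All 4 voglibose values were in the dim range, so the size of the change in transcript is not given by this value. It ran from -0.66 to -0.42 when each mouse was left out in turn, and the adjusted p from 0.503 to 0.995 over all refits. Saa3 did not follow Saa1 across mice (r = -0.20, exact permutation p = 0.641, adjusted 0.641; rho = -0.12, exact permutation p = 0.776, adjusted 0.776; r = -0.03 without water mice 1 and 2, and -0.30 within groups). In the list of macrophage and dendritic cell genes, 6 of 7 measured had a lower mean under voglibose, and 2 of the 7 had an unadjusted p under 0.05. Of all 22206 probe sets, 11293 had a lower mean, and 7.52% had such a p in either direction. The sum of the 7 genes ran from 16.92 to 17.14 in water and from 16.49 to 17.00 in voglibose mice, with none of the 7 in the dim range. Adipocyte markers summed to 12.21 to 12.99 and 12.06 to 12.60, with Adipoq, Plin1, Lep and Retn of the 6 in the dim range. The part of these cells in the Saa3 values was not tested.

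Duoxa2 encodes the maturation factor that dual oxidase 2 needs to leave the endoplasmic reticulum and work at the cell surface. It had the widest range of the set: 8.17, 13.26, 9.71 and 6.48 in water mice 1 to 4 and 6.20, 6.14, 8.23 and 8.77 in voglibose mice 1 to 4. Water mouse 2 stood 3.55 above the next mouse, water mouse 3, and the groups overlapped, with water mouse 4 among the lowest. The water mean was 9.41 ± 2.89 and the voglibose mean 7.33 ± 1.36 (SD, n = 4). The difference was -2.07 ± 1.18 (SE), 4.20-fold lower on the mean log2 signal, with a 95% interval from -4.67 to 0.53 (limma adjusted p = 0.725). Water mouse 2 decided much of it: leaving this mouse out gave -0.79, and leaving out water mouse 4 gave -3.04. Duox1, a relative of the unmeasured Duox2 and an oxidase of other epithelia, was dim, at 3.80 ± 0.52 and 3.82 ± 0.23.

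Duoxa2 followed the distal marker Fabp6 across mice. Ordered by Fabp6 from low to high, the 8 mice had Duoxa2 at 6.14, 6.48, 6.20, 8.17, 8.23, 8.77, 9.71 and 13.26, an order broken once, at voglibose mouse 1. Pearson's r with Fabp6 was 0.92 (exact permutation p = 0.000372, adjusted over 9 relations 0.00335) and Spearman's rho 0.98 (exact permutation p = 0.000397, adjusted 0.00357). Without water mouse 2 and voglibose mouse 2, the farthest from the median of Fabp6, r was 0.87, and within groups it was 0.93. The relation to Fabp6 was computed for all 9 members after their values had been seen. With the mean of the distal list as a covariate, an alternative also added after seeing the data, the Duoxa2 difference was -0.97 ± 0.35 (SE; unadjusted p = 0.0185, limma adjusted p = 0.532). With Fabp6 itself as the covariate it was -1.01 ± 0.46 (unadjusted p = 0.0511, limma adjusted p = 0.571). Leaving out both mice that lacked Fabp6 signal moved the Duoxa2 difference the other way, to -2.65 ± 1.11 (unadjusted p = 0.0392, limma adjusted p = 0.919). These 2 mice were picked by their observed signal. The 5 genes whose centred profiles over the 8 mice were most like that of Duoxa2 were Suox, Fgf15, 1810065E05Rik, Slc10a2 and 2610528A11Rik, with root mean square differences of 0.70, 0.93, 0.94, 0.99 and 1.08 log2 units, where the spread of Duoxa2 itself was 2.21. Fgf15, the ileal hormone induced by bile acids, and Slc10a2, the ileal bile acid transporter, belong to the distal list. Suox, sulfite oxidase, does not. It had 12.81 in water mouse 2 and 7.08 to 8.96 in the other mice.

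**Figure D2:**
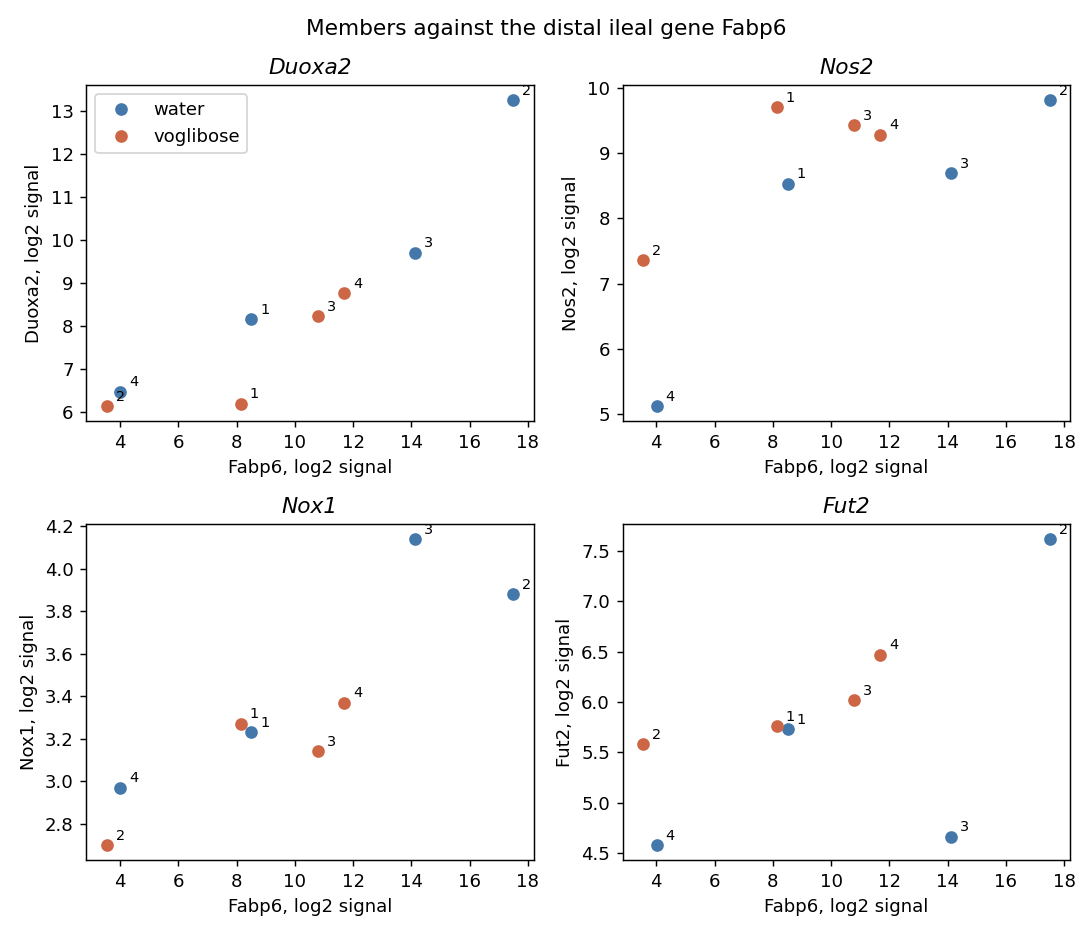
Log2 signal of Duoxa2, Nos2, Nox1 and Fut2 (vertical axes) against that of Fabp6 (horizontal axis) in 4 water mice (blue) and 4 voglibose mice (orange), numbered by mouse. Duoxa2 climbs with Fabp6 from about 6.14 to 13.26, voglibose mice 1 and 2 have more Nos2 than the water mice of like Fabp6, and water mouse 3 has a Fut2 of 4.66 at a Fabp6 of 14.11.

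Nos2, the inducible nitric oxide synthase, had 8.53, 9.81, 8.69 and 5.12 in water mice 1 to 4 and 9.70, 7.36, 9.43 and 9.28 in voglibose mice 1 to 4. The lowest signals belonged to water mouse 4 and voglibose mouse 2, which also had the least Fabp6, and the highest to water mouse 2. Group means were 8.04 ± 2.03 and 8.94 ± 1.07 (SD, n = 4). The difference was 0.91 ± 0.85 (SE), with a 95% interval from -0.97 to 2.78 (limma adjusted p = 0.836). Leaving out water mouse 2 gave 1.5, leaving out water mouse 4 gave -0.068, and leaving out water mouse 4 and voglibose mouse 2 together gave 0.46 ± 0.31.

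The relation of Nos2 to Fabp6 over the 8 mice was looser than that of Duoxa2, with r = 0.72 (exact permutation p = 0.0385, adjusted over 9 relations 0.116) and rho = 0.64 (exact permutation p = 0.0962, adjusted 0.289), but within groups r was 0.88, and without water mouse 2 and voglibose mouse 2 it was 0.70. In the 2 pairs of mice with like Fabp6 the voglibose mouse had the higher Nos2: voglibose mouse 1 had 9.70 with a Fabp6 of 8.14, where water mouse 1 had 8.53 with 8.51, and voglibose mouse 2 had 7.36 with 3.54, where water mouse 4 had 5.12 with 4.01. With the distal list mean as a covariate the difference was 1.62 ± 0.45 (unadjusted p = 0.00368, limma adjusted p = 0.503), and with Fabp6 as the covariate it was 1.63 ± 0.43 (adjusted p = 0.515). The covariate and the pairs were chosen after seeing the values. Each pair holds 1 mouse of each group, and its mice are also in the covariate fits, so the pairs are not separate evidence. Neither covariate value passed over all probe sets. The genes with profiles most like Nos2 were Slc5a6, Susd2, Slc1a1, Serpina10 and Pyy, at root mean square differences of 0.52, 0.63, 0.63, 0.65 and 0.67, where the spread of Nos2 was 1.47. Pyy, a hormone of distal enteroendocrine cells, had 8.44 in water mouse 4, 8.50 in voglibose mouse 2 and 10.97 to 12.16 in the others.

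**Figure D3:**
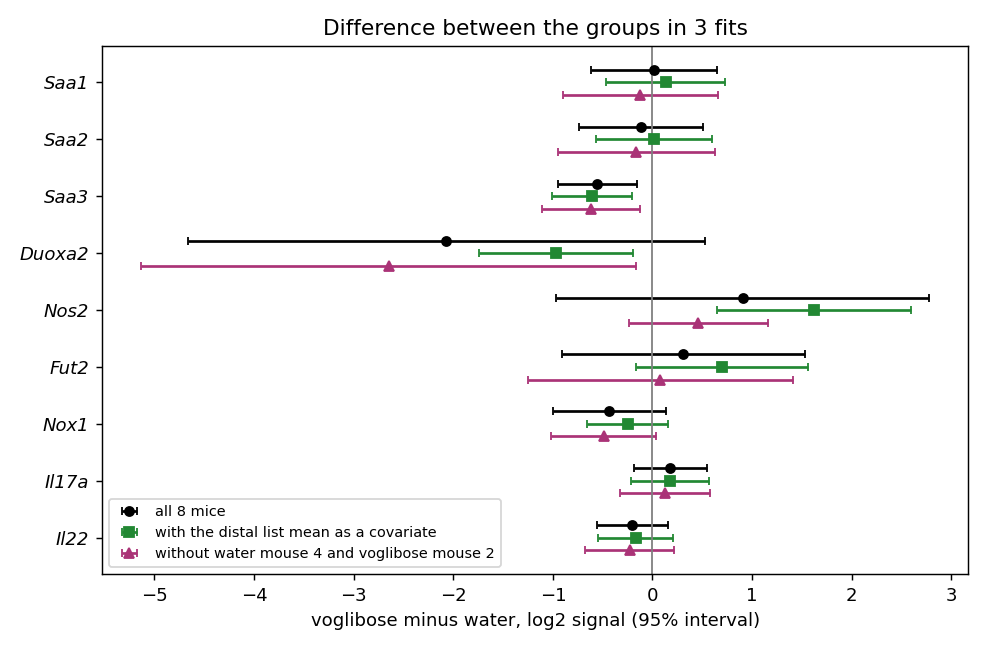
Difference between voglibose and water mice in log2 signal (horizontal axis) with its 95% interval for each member, from all 8 mice (black circles), with the distal list mean as a covariate (green squares) and without the mice lacking Fabp6 signal (purple triangles). Duoxa2 moves from -2.07 to -0.97 and Nos2 from 0.91 to 1.62 with the covariate, while Saa3 stays near -0.55 in all 3 fits.

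Fut2, the fucosyltransferase that adds terminal alpha-1,2-fucose to epithelial glycans, had 5.73, 7.62, 4.66 and 4.58 in water mice 1 to 4 and 5.76, 5.58, 6.02 and 6.47 in voglibose mice 1 to 4. The 4 voglibose mice lay close together, and the water mice both above and below them. Water mice 3 and 4 were in the dim range, water mouse 2 was highest, and the SD was 1.42 in water and 0.39 in voglibose mice (n = 4). The difference was 0.31 ± 0.55 (SE), with a 95% interval from -0.91 to 1.53 (limma adjusted p = 0.927). It was 0.97 ± 0.30 without water mouse 2 (adjusted p = 0.588, and 0.588 to 0.997 over all refits), and it turned to -0.019 or -0.046 when water mouse 3 or 4 was left out.

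The genes with profiles most like Fut2 were Myl9, Slc24a3, Pdlim3, Cald1 and Scube2, at root mean square differences of 0.39 to 0.40 where the spread of Fut2 was 0.91. Myl9 and Cald1 encode a myosin light chain and caldesmon of smooth muscle. The smooth muscle list, 6 of 6 measured and none in the dim range, summed to 15.86, 17.38, 15.54 and 14.22 in the water group, against 15.60, 15.44, 16.51 and 16.00 under voglibose, 4 markers higher and 2 lower, with water mouse 2 highest and water mouse 4 lowest as for Fut2. Goblet cell markers, a cell type that carries fucosylated mucin, summed to 19.32 to 20.10 and 19.38 to 20.12. The part of muscle or goblet cell content in the Fut2 values was not tested. Of the other fucosylation genes 9 of 9 were measured, 5 higher and 4 lower, with a median of 0.03 and none at an unadjusted p under 0.05. The smallest p belonged to Fpgt (-0.47 ± 0.23) and Gfus (-0.30 ± 0.18), enzymes of GDP-fucose supply, the core fucosyltransferase Fut8 (-0.21 ± 0.17) and Fut9 (0.15 ± 0.14).

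Nox1, a superoxide-producing oxidase best known from the colon, was dim in every mouse, at 3.23, 3.88, 4.14 and 2.97 in the water group, against 3.27, 2.70, 3.14 and 3.37 under voglibose. Water mice 2 and 3 were highest and voglibose mouse 2 and water mouse 4 lowest. The difference was -0.43 ± 0.26 (SE), with a 95% interval from -1.0 to 0.13 (limma adjusted p = 0.731), and -0.24 without water mouse 3. All 8 values lay under the yardstick and the mean of each group under the olfactory median of 3.74, so what follows describes the probe set's signal and may not be Nox1 transcript. That signal correlated with Fabp6, a relation computed after the values were seen, with r = 0.89 (exact permutation p = 0.00469, adjusted over 9 relations 0.0211) and rho = 0.88 (exact permutation p = 0.00724, adjusted 0.0326), 0.81 without water mouse 2 and voglibose mouse 2 and 0.90 within groups. With the distal list mean as a covariate the Nox1 difference was -0.25 ± 0.19. Its activating partners were brighter. Noxo1, the organizer subunit, averaged 10.15 ± 0.32 under water and 10.47 ± 0.38 under voglibose (SD, n = 4) and differed by 0.32 ± 0.22 (SE), and Noxa1, the activator, had 6.42 ± 0.44 and 6.43 ± 0.17.

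For Fut2, Pearson's r with Fabp6 was 0.59 (exact permutation p = 0.119, adjusted 0.268) and rho 0.57 (exact permutation p = 0.151, adjusted 0.340). It was 0.67 within groups, 0.67 in the water and 0.88 in the voglibose mice, and 0.26 without water mouse 2 and voglibose mouse 2. For Saa1, Saa2, Saa3, Il17a and Il22, Pearson's r lay between -0.26 and 0.46, with exact permutation p from 0.265 to 0.963. Fut2 and Saa1, set against each other, gave r = 0.63 (exact permutation p = 0.0984, adjusted over 3 relations 0.148), rho = 0.36 (exact permutation p = 0.381, adjusted 0.572) and r = 0.23 without water mice 1 and 2.

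Among the partners and relatives of the oxidases and of nitric oxide synthase, 13 of 16 genes were measured, 7 higher and 6 lower, with a median of 0.01. An unadjusted p under 0.05 was found for 1 of the 13, against 7.52% of all probe sets. This gene was Gch1, the first enzyme in the synthesis of the cofactor tetrahydrobiopterin that NOS2 requires. It had 8.66, 8.76, 8.85 and 8.91 in the water group, against 8.74, 8.47, 8.43 and 8.13 under voglibose, and the groups overlapped through voglibose mouse 1. The difference was -0.35 ± 0.16 (limma adjusted p = 0.659). The Nos2 difference over all 8 mice was opposite in sign, but its interval spanned -0.97 to 2.78. Without water mouse 4 the Nos2 difference was -0.068, so its sign was not stable. Nos3, the endothelial synthase, was dim and differed by 0.28 ± 0.20, and Cybb, the phagocyte oxidase NOX2, by -0.42 ± 0.32.

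The list of microbe sensors, their adaptor and inflammatory cytokines held 12 of 12 measured genes, 6 higher and 6 lower, with a median of -0.01. Cd14, the lipopolysaccharide co-receptor, was the 1 of these 12 at an unadjusted p under 0.05, against 7.52% of all probe sets. It had 6.88 to 7.06 in water and 5.69 to 6.48 in voglibose mice, a difference of -0.89 ± 0.19 (limma adjusted p = 0.652). Il1b, Tlr4 and the adaptor Myd88 followed at -0.49 ± 0.24, -0.38 ± 0.23 and -0.24 ± 0.21.

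Other products that microbes induce in epithelium had 9 higher and 9 lower of 18 measured genes out of 19, with a median of -0.00. The calprotectin subunits S100a9 and S100a8 were the 2 of these 18 at an unadjusted p under 0.05, against 7.52% of all probe sets. They differed by -0.58 ± 0.17 and -0.47 ± 0.17 (limma adjusted p = 0.652 and 0.658). S100a8 lay in the dim range. S100a9, with a mean of 5.07 over the 8 mice, lay barely above it, and voglibose mice 1 to 3 were under the yardstick, at 4.81, 4.65 and 4.54. Neutrophils carry these genes too. Of the 6 measured neutrophil markers, 3 were higher and 3 lower, and S100a8, Camp and Ltf were in the dim range. Their sum ran from 7.34 to 7.53 in water and from 7.18 to 7.36 in voglibose mice, and as the list holds both S100a8 and S100a9, that sum is not independent of them. The part of neutrophils in these values was not tested. Ido1, an interferon-induced enzyme of tryptophan breakdown, and the glutathione peroxidase Gpx2 differed by -1.03 ± 0.48 and -0.59 ± 0.31. The following genes of the list were picked after their values were seen. The bactericidal lectins Reg3b and Reg3g were bright in all mice, at 17.93 to 19.05 and 16.83 to 17.92, and differed by 0.31 ± 0.21 and 0.34 ± 0.20. Lcn2, the siderophore-binding lipocalin, had 8.29 ± 0.34 and 8.29 ± 0.19 (SD, n = 4). Retnlb, a RELM protein of goblet cells, was in the dim range in 7 mice, at 3.03 to 3.45, and at 7.80 in water mouse 2, the mouse with the highest Saa1, Saa2, Duoxa2, Nos2 and Fut2.

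**Figure D4:**
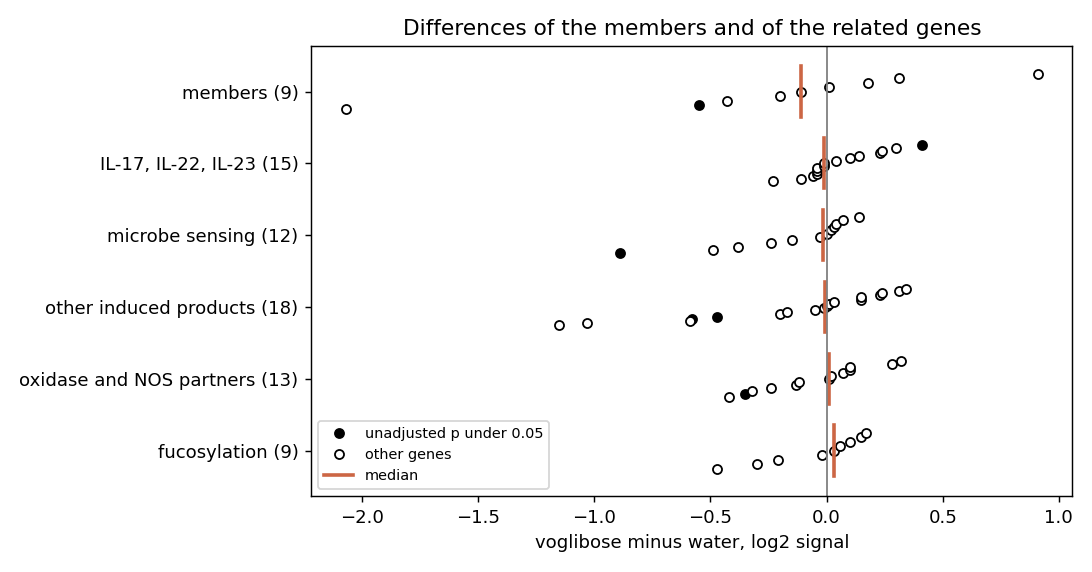
Difference between voglibose and water mice in log2 signal (horizontal axis) for each measured gene of the set and of the 5 related lists (rows, with the number of genes), with genes at an unadjusted p under 0.05 filled and list medians as orange bars. The medians of the related lists lie between -0.01 and 0.03, and the lowest and highest points, -2.07 and 0.91, are Duoxa2 and Nos2, with Retnlb at -1.15 and Ido1 at -1.03 next lowest.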

How the data were processed

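RNA of 8 ileum samples, 4 per group, was measured on 8 Affymetrix arrays from 250 ng of total RNA each. The authors deposited 1 log2 value for each probe set and array. Per the submitters' processing notes, RMA and the Transcriptome Analysis Console were used. The log2 scale was read from the values, which ran from 2.09 to 19.55 with array medians of 5.89 to 5.94. The genome build of the probe sets is not given in the sources used here. Because RMA equalises the arrays, a shift in total RNA is invisible. The number of arrays limits the precision.

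All 22206 probe sets entered the fit, unfiltered. A single gene symbol was given for 19572, several for 0 and none for 2634. All 19572 matched a mouse RefSeq table (GRCm38.p6) by gene identifier. The list entries Fuk and Tsta3 were read under their current symbols Fcsk and Gfus. A gene with several probe sets was given the one with the highest mean, which applied to 0 members. Nothing in the labels says more of the replicates than that each is a mouse.

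The test of voglibose against water was limma's (version 3.58.1, R 4.3.3; lmFit and eBayes without covariate, 2-sided, 11.1 total degrees of freedom). Its p-values were adjusted by Benjamini-Hochberg across the 22206 probe sets. Differences are voglibose minus water with the moderated SE and 95% interval. The fit was tested on simulated data. Relations over mice used exact permutation of the pairings, 2-sided. Of 6 pairs chosen, 3 involved Duox2 and were not computed. Motif search and alignment used Python 3.11.15 and Biopython 1.88, and figures matplotlib 3.10.9.

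The genes named were all members, up to 4 genes with the smallest p in each related list, direct partners, and the 5 genes most like each of the 3 bright members. Fabp6 and Pyy were named as position markers. Saa4, Epcam, Reg3b, Reg3g, Lcn2 and Retnlb were added outside these rules, as were genes named from the cell type marker lists. The members and lists were chosen with earlier results of these data known. The labels name 4 mice per group and no batch. Numbers shared by the groups were not taken to pair the mice, as the labels name no pairing. The deviations of same-numbered mice from their group means correlated at 0.015, -0.324, 0.014 and -0.184 over probe sets. Such values cannot exclude a pairing that the labels leave out.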

Additional observations from a re-analysis of the deposited data

Results flagged for a closer look

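In groups of 4 mice, a value was singled out where its gap to the nearest other mouse passed Dixon's 95% critical value as a share of the group's range. Chance gives this in about 1 in 20 groups, and 116 groups of 58 named genes were examined. There were 6 such values, 1 of them in a member: Saa3 in water mouse 1, at 5.62, where the gap took 0.91 of the range. Without this mouse the Saa3 difference was -0.42. The others were Il1b in voglibose mouse 3 (7.90), Nos3 in water mouse 1 (4.27), Retnlb in water mouse 2 (7.80), Susd2 in water mouse 4 (11.28) and Scube2 in water mouse 2 (6.44).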

How the results depend on the processing

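Under the 17 or 18 alternatives run for each member, no adjusted p fell to 0.05, and Saa3, Duoxa2, Nox1, Il17a and Il22 kept their direction. The Saa1 difference changed sign with a further quantile normalization (-0.035) and without both mice lacking Fabp6 signal (-0.12), and ran from -0.20 to 0.33 when single mice were left out. Saa2 changed sign with the distal list mean as a covariate (0.014) and ran from -0.28 to 0.21 without single mice, Nos2 from -0.068 to 1.5, and Fut2 from -0.046 to 0.97. The median over members was -0.58 when the probe sets under the median were dropped, where only Duoxa2 and Nos2 remained. Without single mice it ran from -0.21 to 0.21, above 0 without water mouse 2, and it was 0.014 with the distal covariate. The count of probe sets at an unadjusted p under 0.05 was 988 there, where fewer were tested, and 969 to 1906 without single mice, lowest without voglibose mouse 1 (the cause was not tested). With the replicate block it was 1529, and the block changed no call. The mean over several probe sets of a gene was not run, since each member had 1. Dim signal limits Saa1, Saa2, Saa3, Nox1, Il17a and Il22.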
